A study of Mus musculus with 16 samples.

Results

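The interaction of α-KG and anti-PD1 is the part of the response of a tumor to both treatments that the sum of the single-treatment responses does not give. For each gene it was taken as the effect of anti-PD1 in the presence of α-KG minus its effect in the absence of α-KG, on log2(FPKM + 1), where FPKM is the number of fragments of a gene scaled to its transcript length and to the sequencing depth. All 16 tumors of the series entered the comparison, and it was computed for 12850 of the 18929 genes in the deposited values, those that reached 0.5 FPKM in 4 tumors or more. A positive value is called more than additive and a negative value less than additive. Because the scale is logarithmic, an additive gene is one whose fold changes multiply.

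Messenger RNA had been sequenced from B16F10 tumors in female C57BL/6 mice of 7 to 8 weeks, with 4 tumors from separate animals in each group. The tumor cells had been injected into the right abdomen. B16F10 is a single mouse melanoma line, and the whole tumor was extracted, so that fewer cells of a type and less RNA per cell cannot be told apart. The groups were vehicle (corn oil with an isotype IgG), anti-PD1, α-KG at 100 mg/kg, and α-KG + anti-PD1, and treatment ran for 9 to 11 days from a tumor volume of about 50 mm3. Whether mice on a single treatment also received the oil or the isotype antibody of the other arm is not stated in the sources used here. Mlana, a melanocyte antigen, was at 795 to 1281 FPKM across the 16 tumors.

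PD1 is an inhibitory receptor of activated T cells, and antibodies that block it release T cells from restraint. α-KG is an intermediate of the tricarboxylic acid cycle and a substrate of the TET DNA demethylases, the histone lysine demethylases and the prolyl hydroxylases that sense oxygen. Tumors also hold neutrophils and macrophages, whose inflammatory genes are switched on through NF-κB, and T cells, whose interferon gamma switches on antigen presentation and defense genes in the cells around them.

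At an adjusted p under 0.05 (limma, Benjamini-Hochberg), 1429 genes departed from additivity, or 11.1% of those tested. More-than-additive genes numbered 1027 (7.99%) and less-than-additive genes 402 (3.13%). At an unadjusted p under 0.05 the number was 3818 (29.7%). The median interaction of all genes was 0.15, with quartiles of -0.07 and 0.37, and the median standard error was 0.17. The largest values lay on the negative side. Among the called genes whose interaction was 2 or more in size, 131 were less than additive and 28 were more than additive. On the FPKM scale without logarithm, the 4 means gave an interaction of the same sign for all 1027 and all 402 genes. Of all genes 71.5% were positive on that scale.

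The 4 simple effects behind the interaction differed in extent. Without α-KG, anti-PD1 changed 96 genes (0.747% of those tested), 60 upward (0.467%) and 36 downward (0.28%). That number was unstable. It was 0 without vehicle tumor 3 or 4 or without anti-PD1 tumor 2, 3 or 4, 885 without vehicle tumor 1, and 4261 with array weights. In the presence of α-KG it changed 4918 genes (38.3%), 4086 upward (31.8%) and 832 downward (6.47%). α-KG changed 2048 genes (15.9%) without anti-PD1 and 1987 genes (15.5%) with it. The upward and downward calls of α-KG were 1080 (8.4%) and 968 (7.53%) without anti-PD1, and 1819 (14.2%) and 168 (1.31%) with it. The anti-PD1 effects without and with α-KG, which share no tumors, had a Pearson r of 0.191 and a Spearman rho of 0.333 over the 12850 genes, which are not independent of each other.

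**Figure D1:**
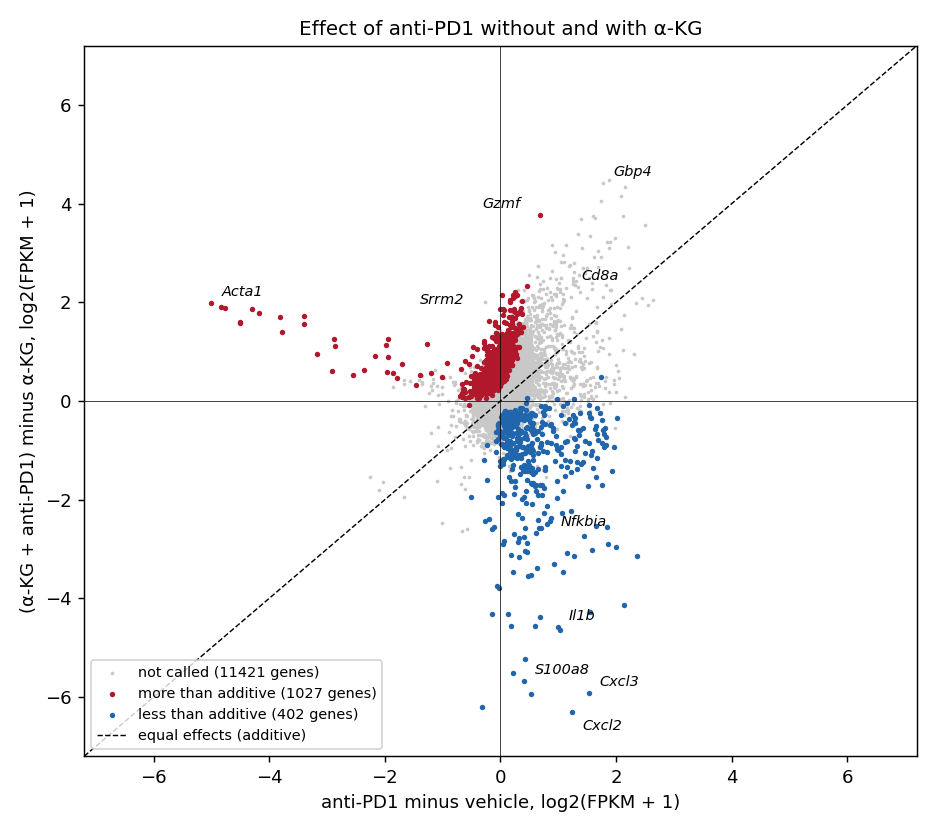
Effect of anti-PD1 for each of the 12850 genes, as the difference of group means on log2(FPKM + 1), without α-KG on the horizontal axis and with α-KG on the vertical axis. Points on the dashed line are additive. The 402 genes less than additive (blue) reach from the line to values near -6 on the vertical axis, and the 1027 genes more than additive (red) form a dense group near the centre with a tail of skeletal muscle genes such as Acta1 on the left.

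Library-wide measures moved with the groups. The FPKM values of the α-KG + anti-PD1 tumors summed to 514180 to 527812, below the other 12 tumors (549740 to 654772). Hemoglobin and erythroid genes took 2.12% to 2.26% of the sum in the combination tumors and 4.27% to 22.4% in the others. The split between both directions followed the scaling of the tumors. Of the called genes 71.9% were more than additive in the deposited values. That share was 50.4% with quantile-normalized tumors, 38.1% when the medians of the tumors were aligned, and 88.1% when their sums were made equal, and the median interaction of all genes was then 0.01, -0.05 and 0.32. In the deposited values and under all 4 scalings tried, 385 genes were called as more and 273 as less than additive. With any 1 tumor left out, 390 and 262 genes were called in the same direction in every one of the 16 fits, and 280 and 233 met both conditions.

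The genes less than additive had one prevailing pattern. The interaction is built from the same 4 means, so that its sign itself favors single-treatment means above vehicle in these genes and below vehicle in the genes more than additive, and the shares below are a description. In 375 of the 402 both single-treatment means lay above the vehicle mean, against 36.7% of all genes. α-KG alone had raised 353 of them at an adjusted p under 0.05, where 8.4% of all genes were called in that direction. In 319 the combination was lower than α-KG alone, where 6.47% of all genes were called. In 196 genes all 4 α-KG tumors lay above the other 12 tumors, which held for 1.69% of all genes.

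Neutrophil genes led this group. Neutrophils are short-lived phagocytes that carry the calprotectin subunits S100a8 and S100a9 in large amounts, and they are drawn into tissue by the chemokines Cxcl1, Cxcl2 and Cxcl3 through the receptor Cxcr2. The list of neutrophil identity and recruitment genes was chosen with earlier results of these data known, so its counts are a description. Its members Mpo, Elane, Camp, Ltf and Cxcl5 were too low to be tested. Of 27 tested neutrophil genes 26 were less than additive (3.13% of all genes), with a median interaction of -4.01 against 0.15 for all genes. The count of 26 was the same under each of the 4 scalings and in all 16 fits that left out 1 tumor. In the α-KG tumors all 27 were called above vehicle (8.4% of all genes). In the combination tumors all 27 were called below α-KG (6.47% of all genes). The FPKM of the list summed to 41.2 to 64.6 in vehicle, 76.3 to 194.6 under anti-PD1, 2061 to 5757 under α-KG alone, and 66.3 to 247.6 under both treatments.

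S100a8 (Gene ID 20201) was at 5.60, 7.69, 11.8 and 14.1 FPKM in the vehicle tumors, 9.65, 36.4, 3.79 and 17.2 under anti-PD1, 607, 416, 785 and 1044 under α-KG alone, and 16.9, 5.69, 5.35 and 39.2 under both treatments. Only the α-KG group stood apart, and the other 3 groups overlapped. Its interaction was -6.09 (standard error 0.86, adjusted p = 0.00057). S100a9 had an interaction of -6.47, Lcn2, which encodes the iron-scavenging lipocalin 2, -5.89, the C-type lectin gene Clec4d -4.76 and the protease gene Asprv1 -4.01. Hdc, which encodes the enzyme that makes histamine, had -5.67.

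The chemokine Cxcl2 (20310) had the largest negative interaction of all named genes, -7.54 (standard error 0.91, adjusted p = 0.000133). It was at 1.45, 7.70, 4.64 and 5.04 FPKM in vehicle, 11.9, 12.8, 7.25 and 14.3 under anti-PD1, 566, 414, 607 and 1232 under α-KG alone, and 3.83, 3.42, 3.25 and 49.1 under both treatments. In the combination group 3 tumors lay within the vehicle range and tumor 4 lay above it. α-KG raised Cxcl2 by a log2 difference of 6.96 without anti-PD1, and its effect with anti-PD1 was -0.58 (adjusted p = 0.55). Cxcl3 (330122) had an interaction of -7.46 (standard error 0.55, adjusted p = 6.41e-06), and it was lower in the combination than in anti-PD1 tumors by a log2 difference of -2.12 (adjusted p = 0.00912). Cxcl1 was far lower in level, with means of 0.235 FPKM in vehicle and 4.86 under α-KG alone, and had an interaction of -2.28.

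The 150 bases before the transcription start of these 3 chemokine genes are shown because the genes lie near each other on chromosome 5 and share a match to the letters GGNNTTTCC, a form of the site that NF-κB binds. The sequences are from RefSeq on the plus strand of GRCm38.p6 (mm10), 5′ to 3′, with every match on either strand in capitals, and they were chosen after the expression values were seen.
Cxcl1 (chr5:90891095-90891244): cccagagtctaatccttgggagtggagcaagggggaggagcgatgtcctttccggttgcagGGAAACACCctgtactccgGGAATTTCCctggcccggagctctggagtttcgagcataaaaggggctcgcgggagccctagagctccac
Cxcl2 (chr5:90903749-90903898): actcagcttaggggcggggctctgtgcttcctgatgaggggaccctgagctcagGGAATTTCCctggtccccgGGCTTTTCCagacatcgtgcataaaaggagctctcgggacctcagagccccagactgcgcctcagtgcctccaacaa
Cxcl3 (chr5:90785951-90786100): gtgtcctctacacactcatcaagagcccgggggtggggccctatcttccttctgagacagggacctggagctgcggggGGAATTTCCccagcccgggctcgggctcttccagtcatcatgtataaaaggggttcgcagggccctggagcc
The same 9 letters GGAATTTCC occur once in each window. In windows of 250 bases before to 50 after the start, the letters GGNNTTTCC were present on either strand in 38 of the 319 genes less than additive that had a promoter in the table (11.9%), in 45 of the 842 more than additive (5.34%), and in 7.28% of all 10333 tested genes with one. The higher share was not particular to these letters. GAAANNGAA, the core of another element, was present in 12.2% of the genes less than additive and 8.84% of all tested genes, and among those with an interaction of 2 or more in size each of these letters was present in 16%. These shares are a description of letters, and not of bound factors.

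NF-κB subunits and their feedback inhibitors, a family chosen after values were seen, were negative in all 13 tested members. Of these 4 were called less than additive (3.13% of all genes). The 4 were Nfkbia, Nfkbid and Tnfaip3, which restrain NF-κB, and Bcl3, which binds its subunits. Nfkbia (18035) was at 12, 11.99, 9.96 and 9.13 FPKM in vehicle, 16.9, 23.1, 23.1 and 18.5 under anti-PD1, 187, 114, 213 and 294 under α-KG alone, and 42.0, 17.6, 44.9 and 43.9 under both treatments. The α-KG tumors were all above the other 12, and 3 of the 4 combination tumors were above every anti-PD1 tumor. Its interaction was -3.28 (standard error 0.40, adjusted p = 0.00014). Nfkbid had -2.22, Tnfaip3 -1.71 and Bcl3 -1.34, and the call of Bcl3 held in 3 of the 16 fits with a tumor left out (adjusted p up to 0.0892 over the alternatives).

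Inflammatory cytokines followed the neutrophil genes. Of 17 tested genes of the IL-1 family, related cytokines and the inflammasome 8 were less than additive (3.13% of all genes) and none was more than additive. Il6 was too low to be tested. Il1b (16176), the main secreted IL-1, was at 2.32, 6.19, 1.79 and 1.46 FPKM in vehicle, 4.29, 13.5, 3.75 and 6.04 under anti-PD1, 384, 276, 481 and 722 under α-KG alone, and 20.2, 6.91, 12.4 and 48.4 under both treatments. The combination tumors were above every vehicle tumor and below every α-KG tumor, and they overlapped with anti-PD1. Il1b had an interaction of -5.58 (standard error 0.71, adjusted p = 0.00021). The IL-1 receptor antagonist Il1rn had -4.96, oncostatin M (Osm) -4.24 and the inflammasome sensor Nlrp3 -3.26.

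The chemokines Ccl3 and Ccl4, which attract monocytes and T cells, had interactions of -4.18 and -4.19. Ccl3 (20302) was at 5.73 to 12.3 FPKM in vehicle, 20.9 to 27.8 under anti-PD1, 330 to 759 under α-KG alone and 44.2 to 130 under both treatments, with no overlap between any 2 groups. Unlike Cxcl2, it kept an effect of α-KG in the presence of anti-PD1, a log2 difference of 1.58 (adjusted p = 0.0105). That contrast between both chemokines was not itself tested. Also among the 12 largest negative interactions were Cd14, the co-receptor for bacterial lipopolysaccharide, Ifitm1, an interferon-inducible membrane protein gene, Saa3, an acute-phase gene, G0s2, an inhibitor of lipolysis, and Thbs1, which encodes the matrix protein thrombospondin 1. Their interactions were -6.27, -5.83, -5.72, -5.66 and -5.50. Srgn, a proteoglycan of secretory granules, had -4.40.

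**Figure D2:**
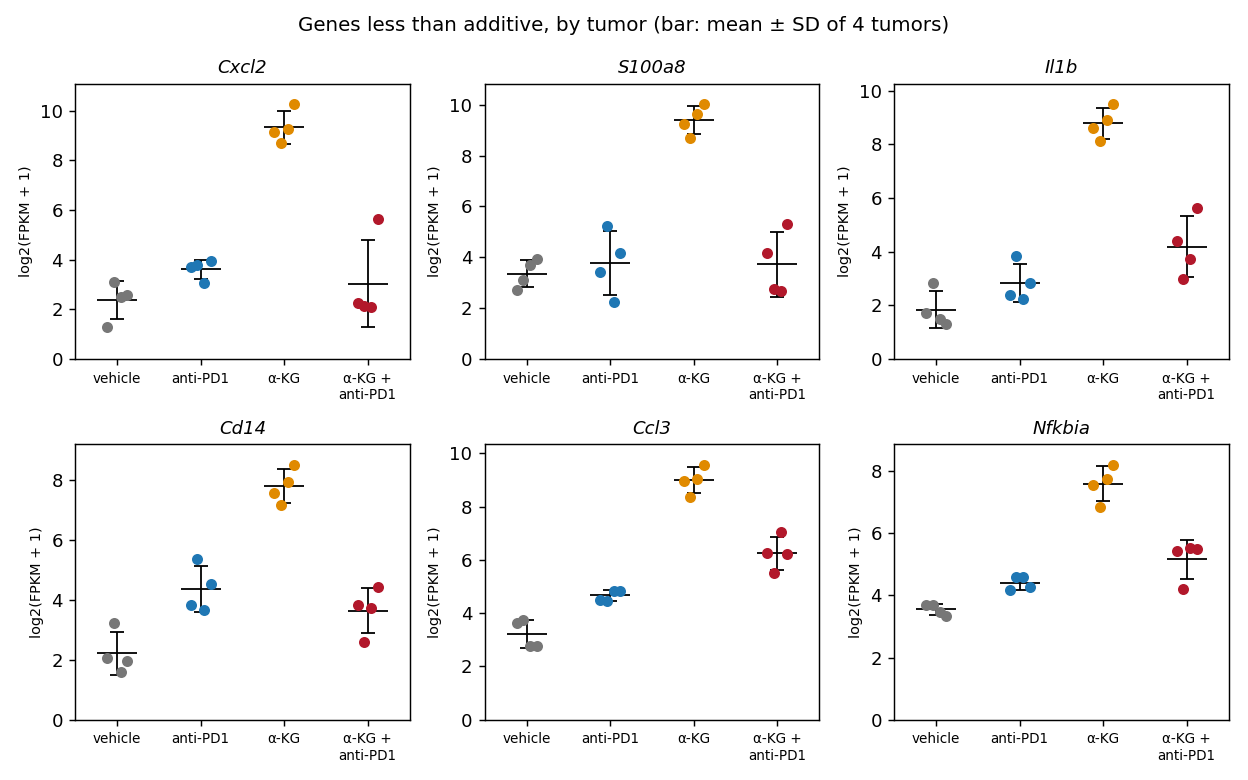
Values of 6 genes less than additive in each of the 16 tumors, on log2(FPKM + 1), with the mean and SD of 4 tumors in each group. The 4 α-KG tumors lie above the other 12 in every panel, and the α-KG + anti-PD1 tumors lie near the anti-PD1 tumors for Cxcl2 and S100a8 and above them for Ccl3.

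Genes of macrophages and of all leukocytes were less than additive in smaller number. Of 21 tested genes of macrophage identity and lipid handling 4 were called (3.13% of all genes), among them Cd14, Itgam and Cd36. Of 18 pan-leukocyte markers 4 were called, namely Cd53, Tyrobp, Fcer1g and Cytip. The median interactions were -0.48 and -1.37. Cd53 (12508), a tetraspanin of leukocytes, was at 9.01, 6.48, 1.86 and 2.16 FPKM in vehicle, 12.5, 17.5, 19.5 and 17.7 under anti-PD1, 47.4, 39.2, 46.7 and 66.3 under α-KG alone, and 38.02, 16.7, 42.1 and 15.1 under both treatments. Anti-PD1 alone raised it by a log2 difference of 1.79 (adjusted p = 0.0464) and α-KG alone by 3.29, and in the combination 2 tumors lay within the anti-PD1 range, 1 above it and 1 within the α-KG range. Its interaction was -2.71 (adjusted p = 0.00718). Itgam, the integrin chain CD11b, had -2.49 and the adaptor gene Tyrobp -2.14. The calls of Cd36 (-1.26), Fcer1g (-1.97) and Cytip (-1.77) held in 6, 7 and 4 of the 16 fits with a tumor left out.

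Cd36, a fatty acid receptor, was raised by anti-PD1 alone by a log2 difference of 1.75 (adjusted p = 0.0184), while the difference of α-KG from vehicle was 0.73 (adjusted p = 0.0702). Arg1 (11846), arginase 1 of alternatively activated macrophages, was raised by each single treatment to a similar level. It was at 20.7, 20.5, 7.78 and 6.31 FPKM in vehicle, 41.6, 37.3, 63.2 and 64.6 under anti-PD1, 76.8, 55.6, 35.0 and 58.5 under α-KG alone, and 23.2, 26.3, 49.1 and 21.0 under both treatments. The single-treatment groups overlapped with each other and lay above vehicle, and the combination tumors lay above vehicle too. Its interaction was -2.89 (standard error 0.51, adjusted p = 0.0036). Of the 12 tested genes of alternatively activated macrophages, 4 were less than additive (3.13% of all genes). They were Arg1, Il10 (-1.44), Folr2 (-1.52) and the chemokine gene Ccl24 (-1.04). Vegfa was the 1 gene more than additive (7.99% of all genes). The call of Folr2 held in 6 of the 16 fits with a tumor left out.

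Of 13 checkpoint ligands and costimulators 1 was less than additive (3.13% of all genes). This was Cd80, the ligand of CD28 and CTLA-4, with -1.71 (adjusted p = 0.0024). Cd274 (60533), which encodes PD-L1, was at 7.63, 4.19, 3.14 and 2.66 FPKM in vehicle, 6.49, 13.9, 12.4 and 7.85 under anti-PD1, 26.8, 22.2, 25.2 and 34.4 under α-KG alone, and 37.7, 20.0, 33.5 and 15.1 under both treatments. Of the combination tumors 1 lay above the α-KG range, 1 within it and 2 below it. Its interaction was -1.18 with a 95% confidence interval from -2.10 to -0.25, and it was not called (adjusted p = 0.0883). Over the alternatives its adjusted p lay between 0.0143 and 0.148, and it passed after centering on the tumor medians (-1.37), with array weights (-1.25) and without vehicle tumor 1 (-1.43).

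Stress and feedback genes formed a further part of the less-than-additive group. Of 21 immediate early genes 6 were called (3.13% of all genes). They were Hspa1a at -3.46, Dusp1 at -3.01, Hspa1b at -2.31 and Zfp36, whose protein destabilizes cytokine messages, at -1.83, beside Btg2 and Dnajb1. Hspa1a and Hspa1b are near-identical copies whose reads cannot be assigned to one of them with certainty. Gadd45b, a stress-induced gene linked to DNA demethylation, had -3.24 (adjusted p = 0.000127). It was the only one called of 15 tested TET and DNA methylation genes (3.13% of all genes). Socs3, a feedback inhibitor of JAK and STAT3 signaling, was the only one of 23 genes of interferon gamma signaling that was called, at -2.17 (adjusted p = 0.00575). It was at 4.63 to 6.93 FPKM in vehicle, 7.21 to 15.6 under anti-PD1, 35.5 to 83.5 under α-KG alone and 10.5 to 26.7 under both treatments, so that the α-KG group did not overlap with any other.

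Several other lists held between 1 and 3 genes less than additive. Egln3, a prolyl hydroxylase that uses α-KG and is itself induced by hypoxia, had -1.89 and rose with α-KG alone from 3.18 to 4.08 FPKM in vehicle to 8.42 to 16, while the combination tumors were at 3.05 to 5.85. Of 20 genes of the melanocyte lineage, 3 were less than additive (3.13% of all genes). They were the endothelin receptor gene Ednrb (-1.69), Tyrp1 (-0.62) and Mlana (-0.56). Tyrp1, an enzyme of melanin synthesis, was at 1846 to 2755 FPKM in the combination tumors and at 2601 to 3372 in the other 12. After quantile normalization Tyrp1 had -0.21 (adjusted p = 0.448) and Mlana -0.35 (adjusted p = 0.189), and without anti-PD1 tumor 4, α-KG tumor 3 or combination tumor 3 Tyrp1 had -0.59, -0.57 and -0.54 and was not called. The monocyte growth factor Csf1 (-1.47), the dendritic cell genes Fscn1 (-1.20) and Ccr7 (-1.22) and the smooth muscle actin Acta2 (-1.24) were also called. Of the 13 tested dendritic cell genes 7 were positive and 6 negative, with a median of 0.04. The calls of Csf1, Ccr7, Acta2 and Mlana held in 8, 5, 11 and 8 of the 16 fits with a tumor left out.

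Of the 14 tested erythroid genes 3 were less than additive (3.13% of all genes), and these were hemoglobin genes. Hbb-bs, a beta-globin gene, lay between 3222 and 3734 FPKM in the combination tumors and between 7108 and 44807 in the other 12. Its interaction was -2.44 (adjusted p = 0.0297), and it was not called without vehicle tumor 1, without tumor 1 or 4 of the anti-PD1 group, without α-KG tumor 3 or without combination tumor 2, with values from -2.42 to -2.10. Hba-a1 and Hba-a2, near-identical copies, had -2.17 and -2.19 and were called in 3 of the 16 such fits.

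Among the genes more than additive, the pattern was the reverse. In 720 of the 1027 both single-treatment means lay below the vehicle mean, against 36.4% of all genes, and in 794 the combination mean was above the other 3 means, against 53.4%. In 650 (63.3%) neither single treatment was called, less often than among all genes (84%), while in 919 the combination was called above α-KG alone, where 31.8% of all genes were called in that direction. All 4 combination tumors lay above the other 12 in 358 of the genes, which held for 8.08% of all genes. In the 233 genes whose combination mean was not the highest, the vehicle mean was.

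The 12 largest positive interactions were among the genes with the highest mean in vehicle, and they were genes of skeletal muscle or expressed in it. They were Acta1, Tnnt3, Mb, Pvalb, Car3, Myl1, Tnnc2, Tpm2, Tnni2, Atp2a1, Tcap and Des, with values from 6.98 down to 4.14. Acta1, skeletal muscle actin, was at 19.1, 18.1, 24.9 and 281 FPKM in vehicle, 0.22, 0.18, 0.34 and 0.39 under anti-PD1, 0.22, 0.19, 0.30 and 0.65 under α-KG alone, and 23.4, 14.4, 0.41 and 0.42 under both treatments. All 4 vehicle tumors and 2 combination tumors carried the muscle messages, and the other 10 tumors were below 1 FPKM for Acta1. The interaction of Acta1 was 6.98 (standard error 1.27, adjusted p = 0.00419). Of 15 tested muscle genes 13 were more than additive (7.99% of all genes), with a median of 5.12. That count is a description. In the single-treatment tumors Pvalb was at 0 to 0.15 FPKM and Tnnc2 at 0 to 0.2, and their vehicle tumors alone let them pass the filter. With both single treatments this low and vehicle high, the interaction can hardly be other than positive. Its sign in such genes therefore does not test for a joint effect of the treatments. The summed FPKM of the list was 114 to 1514 in vehicle, 3.66 to 6.32 under anti-PD1, 5.09 to 5.91 under α-KG alone and 6.91 to 152.5 under both treatments. Without vehicle tumor 4, in which these genes were highest, Acta1 still had an interaction of 6.05. The part that muscle tissue beside the tumor has in these values was not tested.

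The genes in which the combination stood above all other groups were of another kind. Among those called under all 4 scalings with a mean of 2 FPKM or more in some group, the 12 largest interactions, a set chosen after values were seen, were those of Gzmf, Sdr39u1, Gpr162, Aire, Tmem191c, Dmpk, 2310030G06Rik, Nrbp2, Zc3h7a, Srrm2, Npff and Ankle1, from 3.10 down to 1.78. Aire (11634), known as the regulator of self-antigen expression in the thymus, was at 25.99, 17.2, 14.5 and 14.5 FPKM in vehicle, 12.9, 30.2, 20.4 and 21.8 under anti-PD1, 14.7, 16.6, 7.63 and 10.5 under α-KG alone, and 43.4, 73.4, 52.1 and 58.1 under both treatments. The combination tumors were all above the other 12, and the other 3 groups overlapped. Its interaction was 1.93 (standard error 0.37, adjusted p = 0.00545). The calls of Gpr162, 2310030G06Rik, Zc3h7a and Ankle1 held in 11, 9, 7 and 11 of the 16 fits with a tumor left out, and that of Dmpk in 15, without anti-PD1 tumor 4 (1.72).

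Genes of RNA splicing were among the genes more than additive. SR proteins, a family that binds exons and recruits the spliceosome, were collected with their kinases after values were seen. Of the 23 tested 10 were more than additive (7.99% of all genes), none was less, and the median was 0.97. Under the 4 scalings between 9 and 16 of them were called, and between 7 and 14 with 1 tumor left out. Srrm1 (51796), a splicing coactivator, was at 47.3, 49.3, 52.6 and 50.5 FPKM in vehicle, 35.9, 49.1, 46.3 and 38.7 under anti-PD1, 36.2, 36.9, 28.7 and 39.1 under α-KG alone, and 65.5, 65.9, 61.6 and 58.9 under both treatments. In the deposited values the combination tumors were above the other 12, while α-KG alone was below vehicle by a log2 difference of -0.50 (adjusted p = 0.0037). Separation from vehicle depends on the scaling. The medians of tested genes were 3.51 to 3.61 in the combination tumors and 3.19 to 3.35 in vehicle, on log2(FPKM + 1). Centering on them cut the genes with such a separation from 1038 to 263. Its interaction was 1.07 (standard error 0.15, adjusted p = 0.000429).
The kinase gene Srpk2, whose protein phosphorylates SR proteins, had an interaction of 0.98 (adjusted p = 0.000838), Srsf5 had 1.47 and Srrm2, the large scaffold protein of nuclear speckles, had 1.81. Srrm2 was at 52.6 to 70.4 FPKM in vehicle, 36.3 to 105 under anti-PD1, 27.8 to 51.0 under α-KG alone and 116 to 176 under both treatments. The combination tumors were above the other 12, of which anti-PD1 tumor 2 was the highest. Of 28 subunits of the spliceosome itself, also collected afterwards, 7 were more than additive (7.99% of all genes), with a median of 0.21. After centering on the tumor medians 2 of the 28 were. Snrnp70, a protein of the U1 particle, had an interaction of 0.93 (adjusted p = 0.00424).

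**Figure D3:**
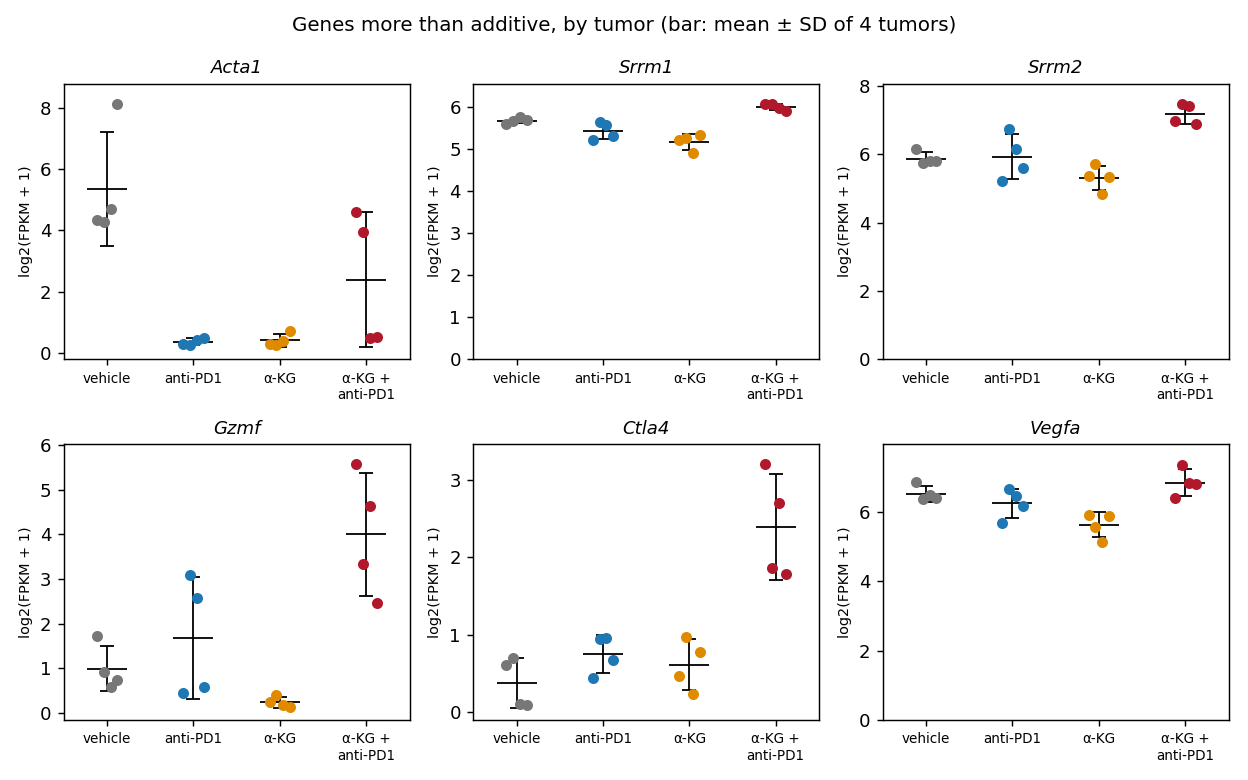
Values of 6 genes more than additive in each of the 16 tumors, on log2(FPKM + 1), with the mean and SD of 4 tumors in each group. Acta1 is high in the vehicle tumors and in 2 of the 4 combination tumors, Srrm1, Srrm2 and Ctla4 are highest in the 4 combination tumors, and in Gzmf and Vegfa the combination tumors overlap with other groups.

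Few genes were called in the lists of the cell cycle, the tricarboxylic acid cycle and the respiratory chain. Of all genes 7.99% were more than additive. In the list of glycolysis and the hypoxia response the share was larger. Of 29 genes of the cell cycle and DNA replication 3 were called, Mki67 (1.55), Top2a (0.63) and Bub1 (0.62), and α-KG alone had lowered 16 of the 29, where 7.53% of all genes were called in that direction. Mki67, a marker of dividing cells, was at 7.61 to 16.5 FPKM in vehicle, 5.04 to 20.6 under anti-PD1, 5.26 to 7.12 under α-KG alone and 14.2 to 24.2 under both treatments, and its call held in 8 of the 16 fits with a tumor left out. Of 26 genes of glycolysis and the hypoxia response 5 were more than additive (Hk2, Gpi1, Car9, Vegfa and Pdk1). In the other direction 2 were called (Egln3 and Pfkfb3), beside 3.13% of all genes. After centering on the tumor medians 1 was more and 2 were less than additive. Vegfa (22339), the angiogenic growth factor, was at 116, 82.5, 88.9 and 83.0 FPKM in vehicle, 50.3, 100.2, 87.0 and 71.9 under anti-PD1, 58.9, 46.9, 34.4 and 58.5 under α-KG alone, and 84.2, 164, 113 and 110 under both treatments. α-KG lowered it without anti-PD1 by a log2 difference of -0.90 (adjusted p = 0.0132), and with anti-PD1 the difference was 0.61 (adjusted p = 0.0762). Its interaction was 1.51 (standard error 0.32, adjusted p = 0.00942).
Hexokinase 2 (Hk2) had an interaction of 0.57 and the carbonic anhydrase Car9 0.59. Of 28 genes of the tricarboxylic acid cycle and α-KG metabolism 2 were more than additive, no larger a share than the 7.99% of all genes. Dlst, the E2 subunit of α-KG dehydrogenase, had 0.45 (adjusted p = 0.0087), and D2hgdh, which converts D-2-hydroxyglutarate to α-KG, had 0.61 (adjusted p = 0.0189). Dlst was at 86.9 to 96.6 FPKM in vehicle, 79.0 to 89.6 under anti-PD1, 69.5 to 83.0 under α-KG alone and 94.4 to 100.6 under both treatments. After centering on the tumor medians Top2a, Bub1, Hk2, Car9, Dlst and Ndufs1 had 0.43, 0.42, 0.38, 0.40, 0.26 and 0.14 and were not called. Ndufs1, of complex I, was the 1 gene called among 34 of the respiratory chain, a smaller share than that of all genes, with 0.34 in the deposited values, and the collagen gene Col5a1 had 0.63. Their calls, and that of Car9, held in 12, 11 and 12 of the 16 fits with a tumor left out.

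T-cell genes were mostly not called. Of 28 genes of T-cell fate and exhaustion 21 were positive and 7 negative. On the FPKM scale without logarithm, which is another measure, 71.5% of all genes were positive. Signs in the gene lists were counted on log2(FPKM + 1). There the median of all genes was 0.15, so that most genes were positive on that scale too. The list of T-cell fate and exhaustion had a median of 0.46. Its most negative gene was Batf, a transcription factor of activated T cells, with -0.83 (adjusted p = 0.0709). Batf was called after quantile normalization (-0.99) and after centering on the tumor medians (-1.02). All 17 tested genes of the T-cell receptor complex and its co-receptors had a positive interaction, with a median of 0.95, and 0 were called by limma, in the deposited values and after each of the 4 scalings, while 1 had an unadjusted p under 0.05. With array weights 4 passed, and with 1 tumor left out up to 2. In the same list anti-PD1 raised 17 of 17 genes in the presence of α-KG (31.8% of all genes), with a median log2 effect of 1.92. In its absence 0 of 17 were called (0.467% of all genes), while the median effect was 0.86. Cd8a (12525), a chain of the CD8 co-receptor, was at 1.13, 0.68, 0.07 and 0.16 FPKM in vehicle, 0.61, 3.40, 4.85 and 2.04 under anti-PD1, 0.59, 3.63, 0.58 and 0.56 under α-KG alone, and 30.5, 10.0, 25.2 and 3.11 under both treatments. Combination tumors 1 to 3 were above the other 12, and combination tumor 4 was below anti-PD1 tumors 2 and 3 and α-KG tumor 2. The interaction of Cd8a was 1.55 with a 95% confidence interval from -0.16 to 3.25 (adjusted p = 0.209). The receptor chains Cd3d, Cd3e and Cd3g had values of 1.15, 1.27 and 1.03, and the kinase gene Zap70 had 1.35 (adjusted p = 0.155). Of the 10 tested NK-cell and Klr receptors 10 were positive with a median of 0.96, and 0 were called by limma (1 at an unadjusted p under 0.05, 5 called with array weights). Klrc1, which encodes the receptor chain NKG2A, had 1.58 (adjusted p = 0.127).

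Single genes of activated T cells were called, beside the 7.99% of all genes. Called as more than additive were 1 of 28 genes of T-cell fate and exhaustion (Ctla4), 1 of 16 granzyme and cytotoxic granule genes (Gzmf) and 1 of 12 T-cell-attracting chemokines and their receptors (Cxcr3), while 0, 1 (Srgn) and 3 (Ccl3, Ccl4 and Ccr7) were called as less than additive. Ctla4 (12477), the inhibitory receptor of activated and regulatory T cells, was at 0.53, 0.62, 0.08 and 0.07 FPKM in vehicle, 0.36, 0.92, 0.94 and 0.59 under anti-PD1, 0.38, 0.96, 0.18 and 0.72 under α-KG alone, and 8.17, 2.64, 5.49 and 2.44 under both treatments. Neither single treatment was called (adjusted p = 0.518 for anti-PD1 and 0.618 for α-KG), and all 4 combination tumors were above the other 12. Its interaction was 1.40 (standard error 0.39, adjusted p = 0.0333), and the call held in 9 of the 16 fits with a tumor left out and not with a pseudocount of 0.1 (1.71, adjusted p = 0.163). Gzmf (14943), a granzyme of strongly stimulated cytotoxic cells, was at 2.30, 0.88, 0.50 and 0.66 FPKM in vehicle, 0.35, 7.57, 4.95 and 0.48 under anti-PD1, 0.18, 0.31, 0.12 and 0.09 under α-KG alone, and 46.7, 9.07, 24.1 and 4.51 under both treatments. Its interaction was 3.10 (adjusted p = 0.0374) and held in 4 of the 16 such fits. Gzmd and Gzme, close copies of Gzmf among which reads may be divided, had 2.06 and 1.85 (adjusted p = 0.108 and 0.0592).
Cxcr3, the chemokine receptor of effector T cells, had 0.90 (adjusted p = 0.0326), and after quantile normalization 0.69 (adjusted p = 0.117). Its call held in 7 of the 16 fits with a tumor left out. Cxcr3 was at 4.87 to 6.96 FPKM in vehicle, 3.86 to 4.72 under anti-PD1, 4.06 to 5.60 under α-KG alone and 5.10 to 10.4 under both treatments. The combination tumors thus overlapped with vehicle. Tnfrsf4 (OX40) and Foxp3, the factor of regulatory T cells, had 1.57 and 0.82 and were not called (adjusted p = 0.0647 and 0.0775). Gzmb was at 0.09 to 4.51 FPKM in vehicle, 2.26 to 17.1 under anti-PD1, 1.74 to 5.35 under α-KG alone and 12.8 to 139 under both treatments, and its interaction of 2.07 (95% confidence interval -0.13 to 4.27) was not called (adjusted p = 0.193).

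Of the 23 genes of interferon gamma signaling 18 were positive and 5 negative, with a median of 0.19, close to the 0.15 of all genes. Ifng (15978) was at 0.79, 0.26, 0.00 and 0.11 FPKM in vehicle, 0.26, 1.63, 2.42 and 0.72 under anti-PD1, 0.27, 0.77, 0.18 and 0.06 under α-KG alone, and 11.5, 4.37, 14.4 and 1.37 under both treatments. It had an interaction of 1.70 with a 95% confidence interval from 0.31 to 3.09 (adjusted p = 0.0993), and passed with array weights (1.95) and without combination tumor 4 (2.22). All 18 tested interferon-induced GTPases of the Gbp and Irg families, which attack the vacuoles of intracellular microbes, were positive with a median of 1.59. By limma 0 were called, with 9 at an unadjusted p under 0.05 (29.7% of all genes). With array weights 7 of them passed, with rescaling to the same sum 1, and with 1 tumor left out up to 3. Anti-PD1 raised 18 of 18 in the presence of α-KG (31.8% of all genes), with a median log2 effect of 2.88. Without α-KG 0 of 18 were called (0.467% of all genes), while the median effect was 1.496.
Gbp4 (17472) was at 2.94, 1.29, 0.11 and 0.13 FPKM in vehicle, 0.98, 16, 16.8 and 1.56 under anti-PD1, 0.33, 1.63, 0.24 and 0.24 under α-KG alone, and 58.1, 29.7, 51.4 and 10.7 under both treatments. The anti-PD1 group was split, with tumors 2 and 3 above combination tumor 4 and tumors 1 and 4 within the vehicle range. The interaction was 2.64 (standard error 1.00, adjusted p = 0.0939) and was called without anti-PD1 tumor 2 (3.12). Gbp8 had 2.08 (adjusted p = 0.0513). Of 21 genes of MHC class I presentation 19 were positive and 0 were called by limma (1 at an unadjusted p under 0.05), with Nlrc5, their transactivator, at 2.05 (adjusted p = 0.104). Of 27 antiviral interferon-stimulated genes 21 were positive and 6 negative on log2(FPKM + 1), with a median of 0.55 against 0.15 for all genes. On the FPKM scale without logarithm, another measure, 71.5% of all genes were positive. By limma 0 of the 27 were called, with 4 at an unadjusted p under 0.05 (29.7% of all genes). With array weights 5 were called, 4 of them more than additive.
The regulator Irf1 had 1.17 (adjusted p = 0.339). Stat3 had 0.04 (95% confidence interval -0.38 to 0.46, adjusted p = 0.909) and Jak2 -0.31 (adjusted p = 0.468).

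**Figure D4:**
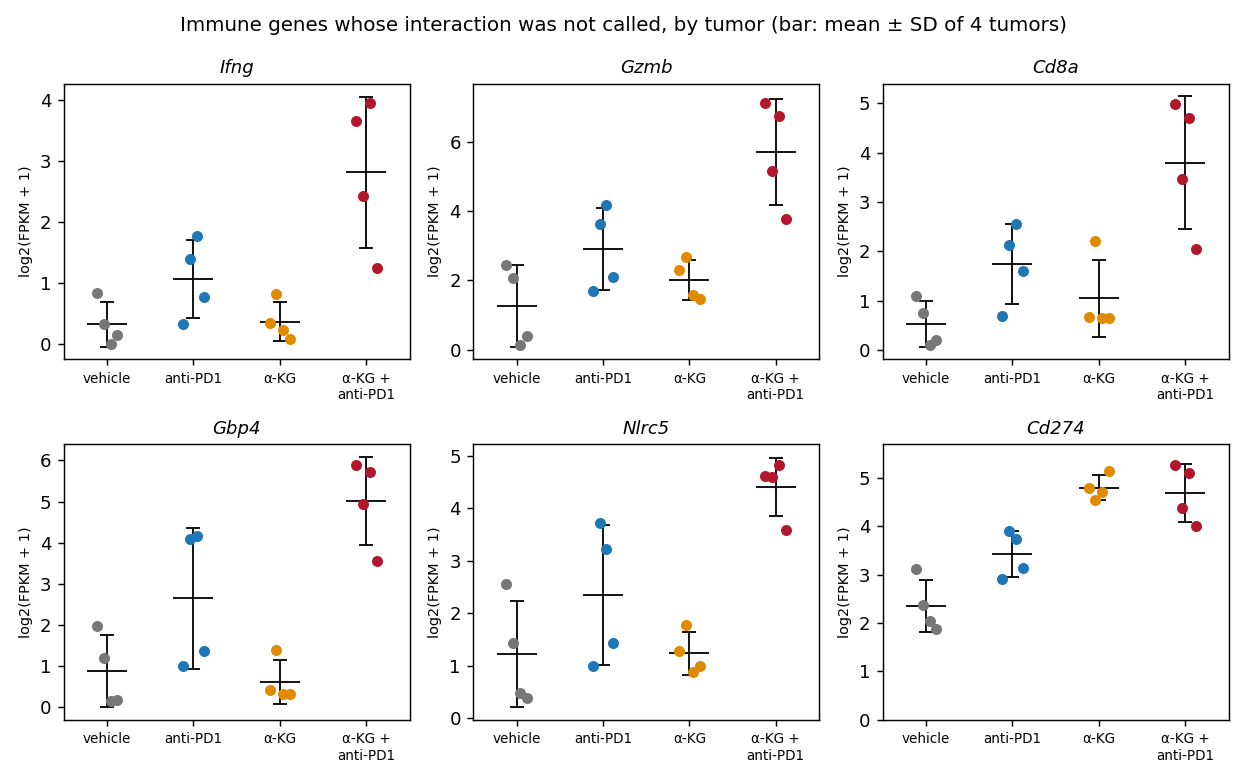
Values of 6 immune genes whose interaction did not pass the threshold in each of the 16 tumors, on log2(FPKM + 1), with the mean and SD of 4 tumors in each group. For Ifng, Gzmb, Cd8a, Gbp4 and Nlrc5 the combination mean is the highest, and Cd274 is as high in the α-KG tumors as in the combination.

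The promoters of the GTPases differed from those of the called genes in their letters. Of the 11 GTPase genes with a promoter in the table, 10 held GAAANNGAA on either strand, the core of the element that binds IRF factors. Among all tested genes with a promoter this share was 8.84%. It was 9.62% in the genes more than additive and 12.2% in those less than additive.

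The enzymes that use α-KG in chromatin were not called. Tet1, Tet2 and Tet3 had interactions of 0.42, 0.76 and 0.23 (adjusted p = 0.0781, 0.239 and 0.513). Tet1 was at 0.96 to 1.35 FPKM in vehicle, 0.63 to 0.76 under anti-PD1, 0.66 to 0.72 under α-KG alone and 0.50 to 1.13 under both treatments, levels near the lower end of what was tested. Of 22 tested histone lysine demethylases 19 were positive with a median of 0.28, against 0.15 for all genes. By limma 0 were called, with 8 at an unadjusted p under 0.05 (29.7% of all genes). After rescaling to the same sum 5 were called as more than additive, where 2110 of all 12850 genes were. Kdm2b had the smallest p of them, with 0.41 (adjusted p = 0.057). Of 36 cytosolic ribosomal protein genes 34 were negative with a median of -0.33, and 0 were called by limma. At an unadjusted p under 0.05 there were 12 (29.7% of all genes), and up to 13 were called when 1 tumor was left out. Rps19 had the smallest p, with -0.76 (adjusted p = 0.0849). The lists of MHC class II genes, B cells, endothelium, and keratinocytes and adipocytes also held 0 called genes by limma, of 12, 5, 9 and 3 tested. At an unadjusted p under 0.05 there were 0, 0, 3 and 0 (29.7% of all genes).

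**Figure D5:**
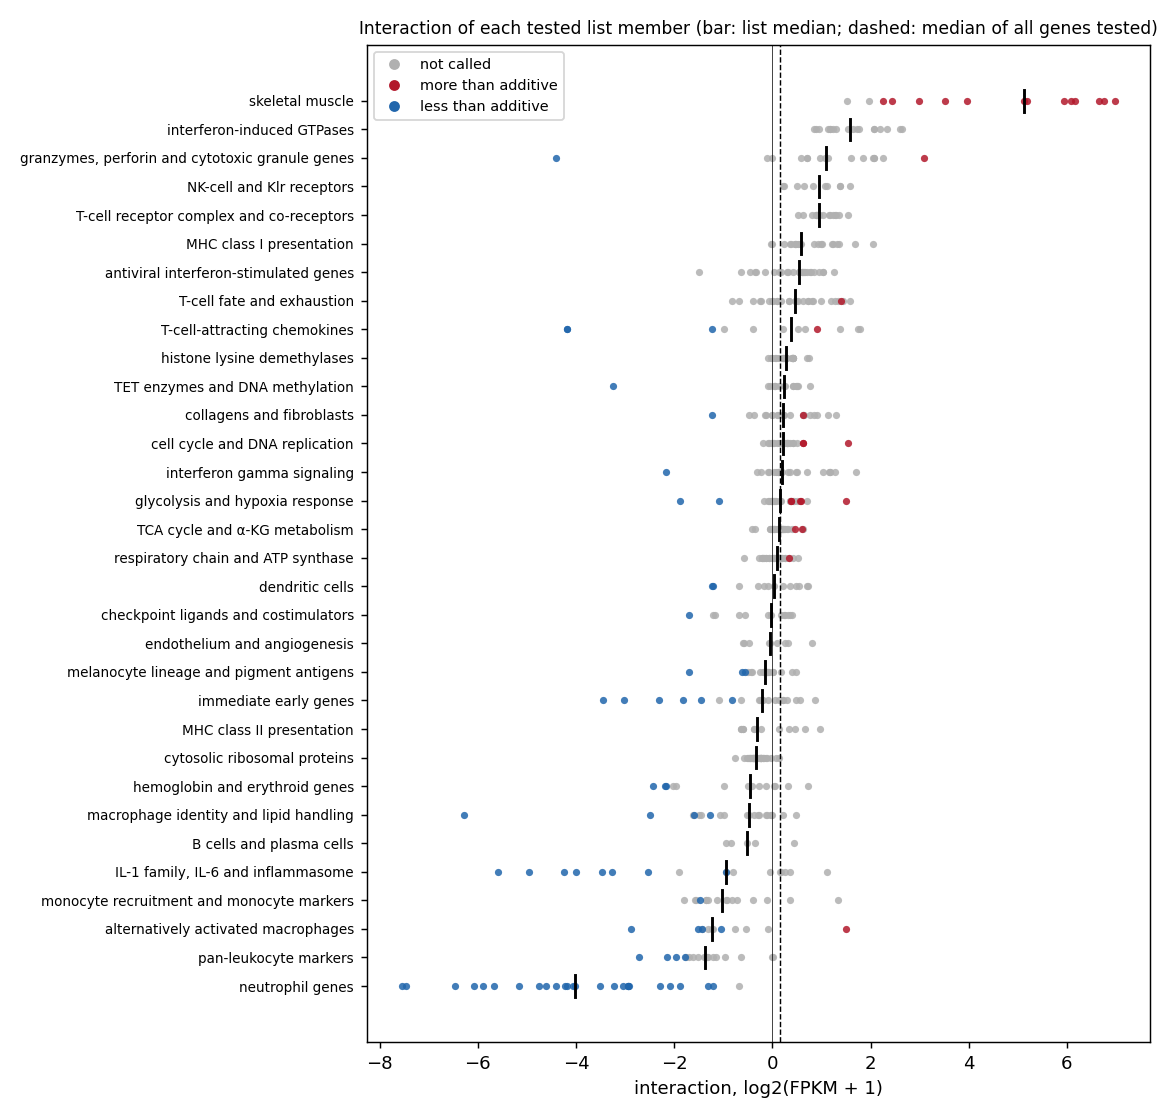
Interaction of every tested member of each gene list with at least 5 tested members, on log2(FPKM + 1), with called genes in colour, the list median as a bar and the median of all genes as a dashed line. Skeletal muscle genes (median 5.12) and neutrophil genes (median -4.01) lie at the ends, and the T-cell and interferon lists lie to the right of the dashed line with few called members.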

How the data were processed

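The authors deposited 1 table of FPKM values (fragments scaled to transcript length and sequencing depth, 2 decimals) for 18929 genes and 16 tumors. Per the labels, poly(A) RNA was selected with oligo-dT, second strands were marked with dUTP, and sequencing was on a DNBSEQ instrument. The submitters' processing notes name HISAT, Bowtie2 and the build mm10. The counting program and any scaling between tumors are not given in the sources used here, and no read depth is given, so the precision of low values is unknown.

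The interaction was fitted on log2(FPKM + 1), for genes that reached 0.5 FPKM in 4 tumors, with 1 mean per group in limma 3.58.1 (eBayes with a trend, R 4.3.3), and p was adjusted by Benjamini-Hochberg over 12850 genes (threshold 0.05). A pseudocount of 1 shrinks differences of genes near or below 1 FPKM. The fit was tested on simulated data. The p values measure the spread between these tumors. Genes named are the 12 largest called interactions in each direction with a group mean of at least 2 FPKM, up to 4 genes of smallest p per list, and genes the study measured, with additions marked as chosen afterwards. Members and lists were chosen with earlier results of these data known. Promoter letters were searched in RefSeq windows of GRCm38.p6. Alternatives were another pseudocount, other filters, 4 scalings, array weights, other variance priors, a replicate block and leaving out each tumor. Figures were drawn with Python 3.11.15 and matplotlib 3.10.9. A few genes are not reported here.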

Additional observations from a re-analysis of the deposited data

Results flagged for a closer look

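The anti-PD1 effect differed with and without α-KG, by the interaction test across all genes, for 1027 genes in the positive and 402 genes in the negative direction. Most of the named genes among them are given here with the interaction on log2(FPKM + 1) in brackets.

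On the negative side, the neutrophil genes and chemokines were Cxcl1 (-2.28), Cxcl2 (-7.54), Cxcl3 (-7.46), S100a8 (-6.09), S100a9 (-6.47), Lcn2 (-5.89), Clec4d (-4.76), Asprv1 (-4.01), Hdc (-5.67), Ccl3 (-4.18) and Ccl4 (-4.19). Cytokine and other inflammatory genes were Il1b (-5.58), Il1rn (-4.96), Nlrp3 (-3.26), Osm (-4.24), Cd14 (-6.27), Ifitm1 (-5.83), Saa3 (-5.72), G0s2 (-5.66), Thbs1 (-5.50) and Srgn (-4.40). Feedback and stress genes were Nfkbia (-3.28), Nfkbid (-2.22), Tnfaip3 (-1.71), Bcl3 (-1.34), Socs3 (-2.17), Gadd45b (-3.24), Hspa1a (-3.46), Hspa1b (-2.31), Dusp1 (-3.01) and Zfp36 (-1.83). Genes of macrophages, other leukocytes and their signals were Arg1 (-2.89), Il10 (-1.44), Folr2 (-1.52), Itgam (-2.49), Cd36 (-1.26), Cd53 (-2.71), Tyrobp (-2.14), Fcer1g (-1.97), Cytip (-1.77), Csf1 (-1.47), Cd80 (-1.71), Ccr7 (-1.22) and Fscn1 (-1.20). The others were Egln3 (-1.89), Ednrb (-1.69), Tyrp1 (-0.62), Mlana (-0.56), Acta2 (-1.24), Hbb-bs (-2.44), Hba-a1 (-2.17) and Hba-a2 (-2.19).

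On the positive side, the muscle genes were Acta1 (6.98), Tnnt3 (6.75), Mb (6.65), Pvalb (6.16), Car3 (6.10), Myl1 (6.08), Tnnc2 (5.95), Tpm2 (5.52), Tnni2 (5.19), Atp2a1 (5.12), Tcap (4.94) and Des (4.14). Genes whose mean in the deposited values was highest in the combination were Gzmf (3.10), Sdr39u1 (2.12), Gpr162 (1.96), Aire (1.93), Tmem191c (1.89), Dmpk (1.88), 2310030G06Rik (1.86), Nrbp2 (1.86), Zc3h7a (1.84), Npff (1.80) and Ankle1 (1.78), the splicing genes Srrm1 (1.07), Srrm2 (1.81), Srpk2 (0.98), Srsf5 (1.47) and Snrnp70 (0.93), and the T-cell genes Ctla4 (1.40) and Cxcr3 (0.90). For Cxcr3 the combination tumors overlapped with vehicle. Genes of growth, metabolism and matrix were Vegfa (1.51), Mki67 (1.55), Top2a (0.63), Bub1 (0.62), Hk2 (0.57), Car9 (0.59), Ndufs1 (0.34), Dlst (0.45), D2hgdh (0.61) and Col5a1 (0.63).

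Dixon's test on log2 values set 1 tumor apart from the other 3 of its group in 38 of 464 combinations of a gene and a group (8.19%). Chance gives about 1 in 20 for independent combinations. These are not independent, since genes such as the muscle genes of vehicle tumor 4 move together. Some flags rest on small differences of rounded values, such as Tet1 at 0.72 FPKM against 0.66 in the other α-KG tumors. The FPKM of each flagged tumor is given in brackets. In combination tumor 4 this was Cxcl2 (49.07). In α-KG tumor 2 these were Lcn2 (136.34), Csf1 (7.47), Pvalb (0.1), Tcap (0.1), Dmpk (3.13), Cd8a (3.63), Zap70 (2.37), Cd3e (3.32), Gbp4 (1.63), Tet1 (0.72) and Tnfrsf4 (1.79). In combination tumor 2 these were Osm (1.3) and Nfkbia (17.64). In anti-PD1 tumor 1 these were Ccl4 (15.27), Il10 (0.24), Tyrobp (57.93) and Tnnt3 (0). In vehicle tumor 1 these were Il10 (0.24), Gpr162 (7.16), 2310030G06Rik (3.84), Srrm2 (70.43) and Top2a (58.41). In vehicle tumor 4 these were Acta2 (1.45), Acta1 (281.3), Tnnt3 (164.21), Mb (202.04), Pvalb (97.05), Car3 (192.82), Myl1 (223.17), Tnnc2 (102.21), Tpm2 (88.02), Tnni2 (97.9), Atp2a1 (68.33), Tcap (45.18) and Des (55.53). In anti-PD1 tumor 4 this was Myl1 (0.03). In α-KG tumor 1 this was Cxcr3 (5.6).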

How the results depend on the processing

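The number of genes called for the interaction (1429) was 2394 after rescaling to the same sum and 3350 with array weights. More-than-additive genes (1027) numbered 569 after quantile normalization, 389 after centering on tumor medians, 2110 after rescaling and 2401 with array weights, and less-than-additive genes (402) numbered 633 after centering and 949 with array weights, which gave vehicle tumor 1 a weight of 0.28 and vehicle tumor 3 one of 3.741. With 1 tumor left out the totals ran from 699 to 2362, with 422 to 1865 more and 277 to 497 less than additive. The total was 789 without anti-PD1 tumor 1, 2362 without anti-PD1 tumor 2, 699 without anti-PD1 tumor 4, 725 without α-KG tumor 3 and 892 without combination tumor 2. The anti-PD1 effect without α-KG (96 genes) was 312 with a pseudocount of 0.1, 5 with no filter on low values, 201 after centering, 29 after rescaling, 4261 with array weights and 0 to 885 with 1 tumor left out. The anti-PD1 effect with α-KG (4918) was 3459 to 5207 with 1 tumor left out. The α-KG effect without anti-PD1 (2048) was 1246 after rescaling, 5029 with array weights and 1256 to 2621 with 1 tumor left out, and with anti-PD1 (1987) it was 4234, 4242 and 228 to 2937. Genes with all combination tumors above the other 12 (1038) numbered 324 after quantile normalization, 263 after centering and 2336 after rescaling, and those below (101) numbered 544, 1147 and 18. The cause of these shifts was not tested.

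Same-numbered tumors of different groups deviated from their group means with r from -0.642 to 0.411 (median 0.007), so the replicate numbers were not taken as pairs. With the replicate number as a block, 1010 genes were called for the interaction and 0 for anti-PD1 without α-KG. Of the uncalled genes, Stat3 (0.04) turned to -0.0307 after quantile normalization and -0.1542 after centering, and with 1 tumor left out it ran from -0.0528 (without combination tumor 1) to 0.1554, with -0.0243, -0.0229, -0.0255 and -0.0220 without anti-PD1 tumor 1, α-KG tumor 2, α-KG tumor 3 and combination tumor 3. Sfn turned to -0.0317 after centering and ran from -0.0477 (without vehicle tumor 1) to 0.3098, and Pparg turned to 0.11 on the linear FPKM scale. The deposited values give no read depth, which limits what can be said of genes near 1 FPKM or below.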
